A study of Mus musculus with 8 samples.

Results

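The genes described here are 10 mouse genes listed for the adenosine cycle. All but Dpp4 act to make adenosine outside the cell, carry it across membranes, break it down or return it to the nucleotide pool. Dpp4 is listed for anchoring a breakdown enzyme on human cells. The genes were taken by symbol from both deposited tables and joined by gene identifier. This gave 10 members out of 31406 genes deposited for the 2 groups, and all 10 passed the filter on low counts. The series holds RNA sequencing of 8 wild-type (WT) primary cultures labelled microglia, which per the methods of the study were made from the striatum of C57/BL6 pups. Every culture was kept for 15 days, after which activation lasted 48 h. The activating agents were lipopolysaccharide (LPS, a bacterial wall component) at 0.01% (v/v) and interferon-γ (IFN-γ), which the methods name as the human protein, at 0.002% (v/v). The A2A antagonist group (n = 4) received SCH 58261, an antagonist of the adenosine A2A receptor. The dual group (n = 4) received SCH 58261 together with 200 nM 2-Cl-IB-MECA, an agonist of the adenosine A3 receptor. Additions of ligand were made 24, 32 and 40 h into activation. The groups follow the titles of the samples, and the treatment field of the labels is the other way round for all 8 libraries, so the direction of each difference rests on the titles. No label ties a library to a separate animal or litter, so p-values measure the spread between these libraries, which may be technical.

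Adenosine outside the cell is made mainly from released ATP. Ectonucleotidases on the cell surface remove its phosphates one after the other until AMP is cut to adenosine, which then acts on receptors such as A2A and A3. The signal ends when equilibrative transporters carry adenosine into cells, where adenosine kinase turns it back into AMP, or when adenosine deaminase converts it to inosine. In brain tissue, CD39 (Entpd1) is known as a surface enzyme of microglia, and adenosine kinase is known mainly from astrocytes.

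The methods of the study describe the cultures as almost pure microglia by labelling with anti-CD11b antibodies. Marker genes were described beside this label. Summed levels of different genes do not give the share of cells of a type. The FPKM (fragments per kilobase of transcript, scaled to library size) of 10 microglia markers summed to between 547 and 667 in the 8 libraries, against 1046 to 1137 for 8 astrocyte markers and 323 to 413 for 7 fibroblast markers. Single genes varied widely within each list. Among astrocyte markers, Gfap, the main filament protein of astrocytes, was at a mean of 389.8 FPKM and S100b at 4.36. Among microglia markers, C1qa was at 419.6, Csf1r, a growth factor receptor, at 46.0, and P2ry12, an ATP-derivative receptor of resting microglia, at 0.715. The 6 lymphocyte markers summed to at most 0.223 FPKM. The levels are sums over all cells of a culture with markers of several cell types, and a change in the number of cells of a type cannot be told apart from a change in RNA per cell. Between the groups, 1 of 10 microglia markers (C1qa, -0.24 on the log2 scale, adjusted p = 0.0240, edgeR) and none of the 8 astrocyte or 7 fibroblast markers passed the test. Over all genes tested, 0.208% were called. No gene at all was called without A2A antagonist library 4 or without dual library 3, so the call of C1qa rests on single libraries.

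On the FPKM scale, which allows genes to be compared per length, Pnp was the highest of the 10 genes and Dpp4 the lowest. Means over the 8 libraries were 11.7 for Pnp, 8.52 for Slc29a3, 6.64 for Entpd2, 5.75 for Adk and 4.28 for Slc29a1. A second set of genes lay lower, with 1.21 for Entpd1, 0.979 for Nt5e, 0.954 for Ada, 0.442 for Enpp1 and 0.419 for Dpp4. Among neighbours in this order, the ranges over the libraries overlapped between Entpd2 and Adk, Entpd1 and Nt5e, Nt5e and Ada, and Enpp1 and Dpp4, and the other 5 neighbouring pairs did not overlap. Entpd1 was above Nt5e in all 8 libraries in spite of the overlap of the ranges, whereas Nt5e was above Ada in 5 of 8.

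**Figure D1:**
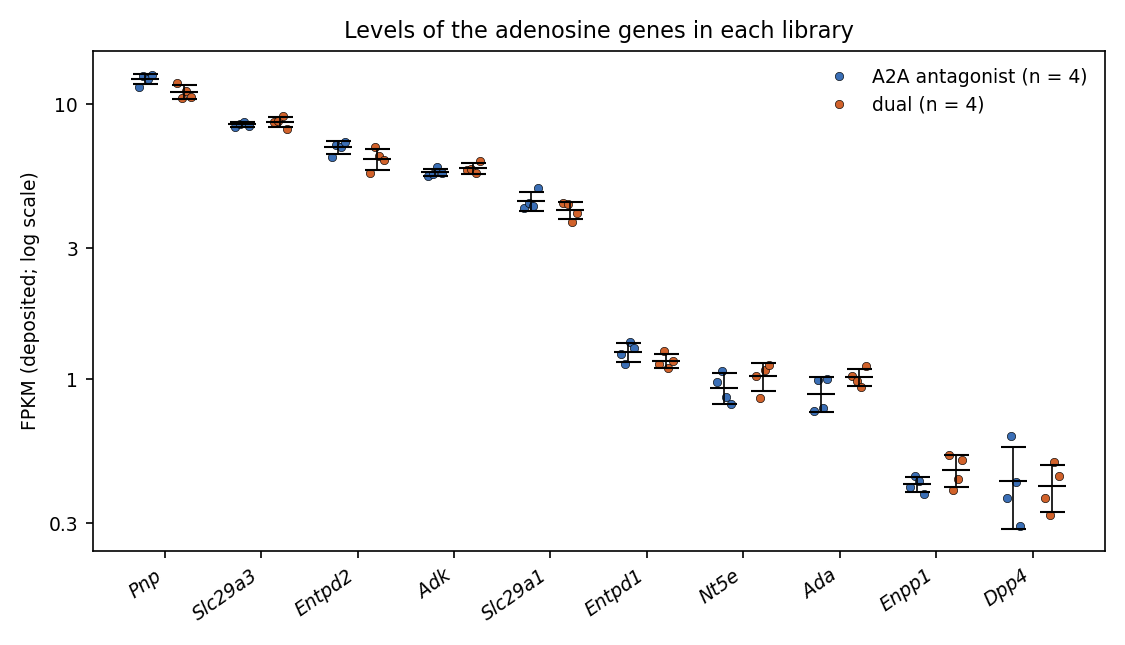
Level of each adenosine gene in each library, in deposited FPKM on a log scale, with points for single libraries and black lines for the mean and SD of the A2A antagonist group (blue, n = 4) and the dual group (orange, n = 4). Both groups overlap for each of the 10 genes, and Dpp4 has the widest spread, from 0.294 to 0.623 FPKM in the A2A antagonist group.

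The main comparison asked whether adding the A3 agonist to the A2A antagonist altered these genes. None of the 10 passed the test (edgeR quasi-likelihood F test, adjusted p from 0.148 to 0.943), with 0.208% of the 18756 genes tested called. At an unadjusted p under 0.05, 1 of 10 (Pnp) was past the threshold, against 12.8% of all genes tested. For none of the 10 did the CPM (counts per 1e6 counts of the library, scaled with TMM factors) separate the groups without overlap, against 7.42% of all genes. The median log2 fold change (dual minus A2A antagonist) was -0.01 over the 10 genes and 0.00 over all genes, and 5 genes had a higher and 5 a lower point estimate in the dual group.

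**Figure D2:**
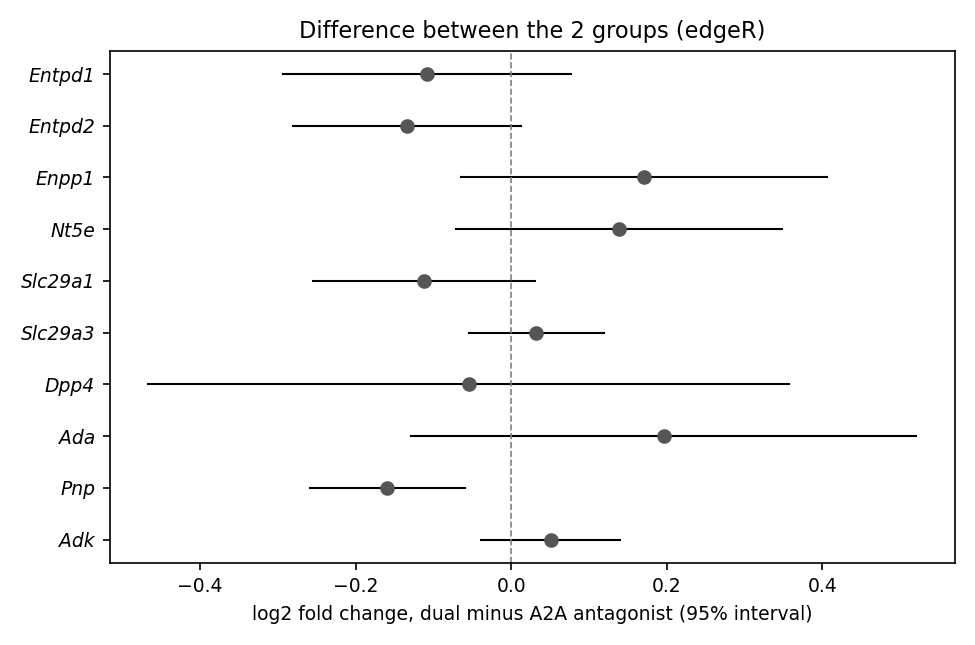
Difference of each adenosine gene between the groups as the edgeR log2 fold change, dual minus A2A antagonist (points), with its 95% interval (lines), in the order production, uptake, breakdown and recycling. The interval leaves out 0 only for Pnp, from -0.26 to -0.06, whose adjusted p of 0.148 did not pass the threshold.

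Production starts with 3 surface enzymes that act on ATP. Entpd1 encodes CD39, which cuts ATP and ADP to AMP, and lies at chr19:40612366-40741602 (GRCm38, plus strand). Its CPM was 6.95, 6.35, 7.66 and 7.33 in the A2A antagonist libraries 1 to 4 and 6.41, 7.12, 6.19 and 6.54 in the dual libraries 1 to 4. The groups overlapped, and the log2 fold change was -0.11 (SE 0.09, 95% interval -0.29 to 0.08, adjusted p = 0.657). Entpd2, which removes mainly the last phosphate of ATP and so yields ADP, lies at chr2:25395874-25401321 (plus strand). Its CPM was 13.8, 15.2, 15.0 and 15.6 in the A2A antagonist libraries and 12.02, 15.0, 13.9 and 13.4 in the dual libraries. The lowest value was that of dual library 1, and the log2 fold change of -0.13 (SE 0.07, 95% interval -0.28 to 0.01) had an adjusted p of 0.437. On the FPKM scale Entpd2 was above Entpd1 by a median of 5.40-fold in the A2A antagonist libraries and 5.44-fold in the dual libraries, with overlapping ranges (5.13 to 6.29 and 4.92 to 5.88). The exons of Entpd2 share 612 of 2128 bases with Npdc1 on the same strand, and how reads there were counted is not stated, so its level is uncertain.

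Enpp1 encodes a pyrophosphatase that cuts ATP directly to AMP and pyrophosphate, the latter an inhibitor of mineral deposition. The gene lies at chr10:24637914-24712159 (minus strand). Its CPM was 4.20, 4.60, 4.43 and 3.96 in the A2A antagonist libraries and 5.52, 4.13, 4.47 and 5.28 in the dual libraries. Dual libraries 1 and 4 lay above all others and dual libraries 2 and 3 within the range of the A2A antagonist group. The log2 fold change was 0.17 (SE 0.11, 95% interval -0.06 to 0.41, adjusted p = 0.557).

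Nt5e encodes CD73, the surface enzyme that turns AMP into adenosine, and lies at chr9:88327197-88372092 (plus strand). Its CPM was 8.53, 9.30, 7.47 and 7.07 in the A2A antagonist libraries and 8.89, 7.46, 9.37 and 9.81 in the dual libraries. Both groups spanned nearly the same range, and the log2 fold change was 0.14 (SE 0.10, 95% interval -0.07 to 0.35, adjusted p = 0.606). The FPKM ratio of Entpd1 to Nt5e, enzymes that act one after the other, had a median of 1.42 in the A2A antagonist libraries and 1.07 in the dual libraries, with overlapping ranges (1.05 to 1.60 and 1.02 to 1.47).

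Uptake was represented by 2 equilibrative nucleoside transporters. Slc29a1 encodes ENT1, the main carrier of adenosine across the cell membrane, and lies at chr17:45585200-45599606 (minus strand). Its CPM was 17.0, 17.6, 17.1 and 19.9 in the A2A antagonist libraries and 17.7, 17.6, 15.1 and 16.2 in the dual libraries. A2A antagonist library 4 was the highest and dual library 3 the lowest, and the other 6 lay between 16.2 and 17.7. The log2 fold change was -0.11 (SE 0.07, 95% interval -0.25 to 0.03, adjusted p = 0.519). Slc29a3 encodes ENT3, a transporter of lysosomes and other inner membranes, and lies at chr10:60712072-60752794 (minus strand). Its CPM was 48.6, 49.7, 50.6 and 49.1 in the A2A antagonist libraries and 50.8, 51.1, 53.0 and 47.7 in the dual libraries. This was the most even of the 10 genes in the A2A antagonist group, with a coefficient of variation of 1.76% where counting alone gives 2.17%. The log2 fold change was 0.03 (SE 0.04, 95% interval -0.05 to 0.12, adjusted p = 0.802). Slc29a3 was above Slc29a1 in FPKM by 1.69 to 2.03-fold in the A2A antagonist libraries and 1.98 to 2.41-fold in the dual libraries. The exons of Slc29a1 share 275 bases with the antisense gene Gm17080.

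Breakdown was represented by Ada and Pnp, with Dpp4 listed beside them for its link to adenosine deaminase on human cells. Whether that link holds in these mouse cultures was not tested. Ada encodes adenosine deaminase, which turns adenosine into inosine, and lies at chr2:163726584-163750239 (minus strand). Its CPM was 1.56, 2.00, 1.58 and 2.03 in the A2A antagonist libraries and 2.08, 2.00, 1.90 and 2.26 in the dual libraries. A2A antagonist libraries 1 and 3 were below all others, and the rest overlapped. With 60 to 100 reads per library, counting error alone was 11.4% in the A2A antagonist group and 11.0% in the dual group, and the log2 fold change of 0.20 (SE 0.15, 95% interval -0.13 to 0.52) had an adjusted p of 0.645. The interval allows a rise of up to 0.52 on the log2 scale, so the depth sets only a loose limit on a change of Ada.

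Dpp4 encodes CD26, a surface dipeptidyl peptidase that anchors adenosine deaminase on human cells, and lies at chr2:62330073-62412231 (minus strand). Its CPM was 2.36, 3.96, 2.70 and 1.87 in the A2A antagonist libraries and 2.36, 2.05, 3.18 and 2.84 in the dual libraries. The highest and the lowest value were both in the A2A antagonist group, whose coefficient of variation was 32.7% where counting alone gives 9.24%. The log2 fold change was -0.05 (SE 0.20, 95% interval -0.47 to 0.36, adjusted p = 0.943), and it was 0.19 without A2A antagonist library 2 and 0.04 without dual library 2. Its direction is therefore not given. The exons of Dpp4 share 232 bases with the antisense gene Gm13561.

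Pnp encodes purine nucleoside phosphorylase, which splits inosine to hypoxanthine, and lies at chr14:50931082-50965237 (plus strand). Its CPM was 46.4, 50.7, 49.4 and 51.3 in the A2A antagonist libraries and 47.8, 42.4, 44.7 and 42.5 in the dual libraries. Only dual library 1 and A2A antagonist library 1 crossed over, and the means were 49.5 ± 2.16 (SD, n = 4) and 44.4 ± 2.56 (SD, n = 4). The log2 fold change of -0.16 (SE 0.05, 95% interval -0.26 to -0.06) had an unadjusted p of 0.00342 and an adjusted p of 0.148 in edgeR. The Wald test of DESeq2 gave an adjusted p of 0.0466 for Pnp, the 1 call among the 3 of these genes to which it gave an adjusted p, with 4.7% of such genes called in all. The summed FPKM of the microglia markers was 594 to 667 in the A2A antagonist libraries and 547 to 583 in the dual libraries. These sums did not overlap, and neither did the CPM of 7.42% of all genes tested. The most abundant of these markers was C1qa, at a mean of 419.6 FPKM and a log2 fold change of -0.24. The median log2 fold change of the 10 markers was -0.02, and those of Csf1r (0.11), Itgam (0.04), Cx3cr1 (0.03) and P2ry12 (0.28) were above 0. The part of these markers in the value of Pnp was not tested. The FPKM ratio of Pnp to Ada was 12.7 to 15.7 in the A2A antagonist libraries and 9.48 to 11.9 in the dual libraries. It was the only 1 of 5 such ratios computed whose groups did not overlap. The share of other gene pairs without overlap was not computed, and Ada had only 60 to 100 reads per library, so nothing is concluded from this ratio. Of the 3941 different 31-base words in the transcripts of Pnp, 597 occur also in its neighbouring copy Pnp2, and its exons share 718 bases with Gm49342 on the same strand, so the split of reads between these genes is uncertain. Pnp2 itself was at 0.0827 to 0.230 FPKM in the 8 libraries, with a log2 fold change of 0.61 (SE 0.39, adjusted p = 0.549).

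Recycling was represented by Adk, adenosine kinase, which turns adenosine back into AMP inside the cell and lies at chr14:21052574-21448569 (plus strand). Its CPM was 47.2, 47.8, 50.5 and 48.4 in the A2A antagonist libraries and 49.6, 49.9, 48.0 and 53.3 in the dual libraries. Dual library 4 was the highest and the other 7 libraries were interleaved, and the log2 fold change was 0.05 (SE 0.04, 95% interval -0.04 to 0.14, adjusted p = 0.671). This interval is among the narrowest of the 10. On the FPKM scale Adk was above Ada by a median of 6.37-fold in the A2A antagonist libraries and 5.73-fold in the dual libraries, with overlapping ranges.

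The study also compared the A2A antagonist with activated cultures that received vehicle. For this comparison only the authors' mean normalized counts of each group were used, which carry no error here, so the values are a description without a test, and treatment cannot be told apart from any batch of cultures. Of the 10 genes, 3 had an A2A antagonist mean more than 1.5-fold below the control mean, against 10.9% of the 18861 genes compared. In the other direction Entpd2 alone was more than 1.5-fold above, against 3.71% of the genes compared. Enpp1 stood farthest apart, with authors' means of 185 in the A2A antagonist group and 1085 in the control, a ratio of 0.171. The authors' means of Nt5e were 349 and 961 (ratio 0.363), and those of Dpp4 were 117 and 292 (ratio 0.403). Entpd1 and Entpd2 lay the other way, with authors' means of 305 against 231 for Entpd1 (ratio 1.32) and 643 against 404 for Entpd2 (ratio 1.59).

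The other 5 genes had authors' means closer to the control. The ratio of A2A antagonist to control was 1.00 for Adk (2090 against 2080), 1.06 for Slc29a3, 1.09 for Pnp, 1.28 for Slc29a1 and 0.785 for Ada (77.2 against 98.4). The median ratio was 1.03 over the 10 genes and 1.01 over all genes compared.

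Cell type markers were compared with the control in the same way. Of 7 fibroblast markers, 6 had an A2A antagonist mean more than 1.5-fold below the control mean, with ratios of 0.216 to 0.978 and a ratio of summed means of 0.280. The ratio of summed means was 1.13 for the 10 microglia markers, 1.22 for the 8 astrocyte markers, 1.19 for the 7 oligodendrocyte lineage markers, 0.988 for the neuron markers, 0.590 for the mural markers and 0.481 for the endothelial markers. Single markers varied within these lists. More than 1.5-fold lower were 3 of 6 neuron markers (median ratio 0.760), 2 of 4 mural markers (median 0.702) and 2 of 6 endothelial markers (median 0.735). The same held for 1 of 10 microglia markers (median 1.15), 1 of 8 astrocyte markers (median 1.23) and 6 of 7 fibroblast markers (median 0.285). More than 1.5-fold higher were 3 of 8 astrocyte markers and 1 of 6 neuron markers, and none in the other lists compared. The 6 lower fibroblast markers reached up to a ratio of 0.368 (Dcn). Nt5e (0.363) lay among them, Dpp4 (0.403) just above them and Enpp1 (0.171) below all 7. Also near Nt5e and Dpp4 were the endothelial markers Tek (0.367) and Cdh5 (0.378) and the astrocyte marker Gja1 (0.426). The part of any of these cell types in the values of Enpp1, Nt5e and Dpp4 was not tested. Within the 8 libraries of the series the fibroblast markers summed to 323 to 370 FPKM in the A2A antagonist group and 327 to 413 in the dual group, with overlap. Dual library 1 had the highest of these sums. The highest value was in dual library 1 for Enpp1, dual library 4 for Nt5e and A2A antagonist library 2 for Dpp4. A link of the 3 genes to the fibroblast markers across libraries was not tested.

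**Figure D3:**
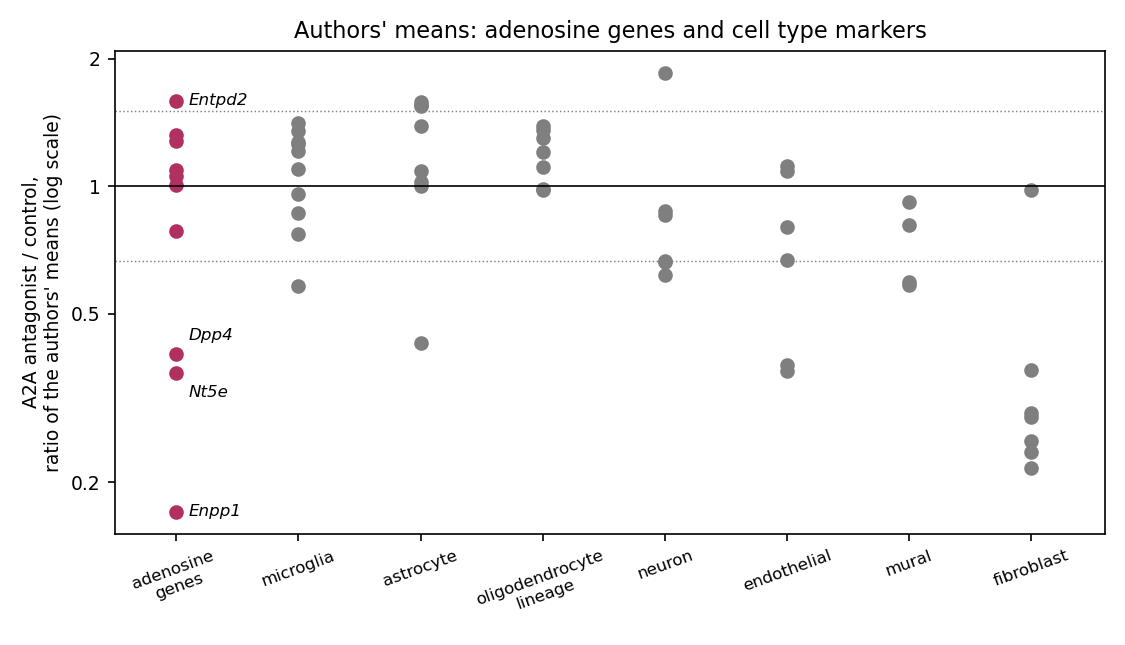
Ratio of the authors' mean normalized counts, A2A antagonist over control, on a log scale, for the 10 adenosine genes (dark red) and for marker genes of 7 cell types (grey) with a mean of at least 10 over both. Dotted lines mark 1.5-fold in either direction. Enpp1, Nt5e and Dpp4 lie between 0.171 and 0.403. Near them lie 6 of the 7 fibroblast markers (0.216 to 0.368), endothelial Tek (0.367) and Cdh5 (0.378), and astrocyte Gja1 (0.426). No error can be given for these pooled means.

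The promoters of these 3 genes are shown because they carry the largest differences from the control among the 10, and the letters allow them to be compared. Each runs from 250 bases before to 50 bases after the start of the gene in RefSeq (GRCm38.p6), 5′ to 3′ on the strand of the gene. A promoter entry was found for all 10 genes. For Nt5e the RefSeq start lies downstream of the gene start given above, so its stretch falls inside the gene span given there. Capitals mark the matches on either strand to the GC box GGGCGG, the short cAMP response site TGACG, the full cAMP response element TGACGTCA, the TATA box TATAAA, the interferon-γ activated site TTCNNNGAA and the AP-1 site TGANTCA, and the short site lies within the full element. The sequences are those of Nt5e at chr9:88327359-88327658, Enpp1 at chr10:24712110-24712409 and Dpp4 at chr2:62412182-62412481.
Nt5e: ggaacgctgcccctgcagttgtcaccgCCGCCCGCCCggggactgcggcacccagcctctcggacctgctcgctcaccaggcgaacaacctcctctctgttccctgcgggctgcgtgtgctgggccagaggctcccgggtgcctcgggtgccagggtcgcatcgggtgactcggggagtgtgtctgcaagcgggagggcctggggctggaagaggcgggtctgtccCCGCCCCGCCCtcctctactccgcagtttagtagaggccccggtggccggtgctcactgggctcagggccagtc
Enpp1: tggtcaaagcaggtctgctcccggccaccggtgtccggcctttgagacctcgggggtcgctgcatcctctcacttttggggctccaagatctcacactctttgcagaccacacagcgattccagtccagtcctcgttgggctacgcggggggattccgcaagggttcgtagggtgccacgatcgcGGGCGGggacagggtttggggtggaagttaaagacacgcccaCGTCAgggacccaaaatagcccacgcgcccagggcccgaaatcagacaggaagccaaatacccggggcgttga
Dpp4: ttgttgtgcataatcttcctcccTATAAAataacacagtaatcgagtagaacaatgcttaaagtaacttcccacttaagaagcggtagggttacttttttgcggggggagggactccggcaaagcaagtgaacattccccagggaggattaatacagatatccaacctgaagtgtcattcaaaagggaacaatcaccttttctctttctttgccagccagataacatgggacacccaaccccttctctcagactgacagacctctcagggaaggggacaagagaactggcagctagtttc

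No motif occurred in all 3 promoters, and the GC box occurred in those of Nt5e and Enpp1. Nt5e had 4 matches to the GC box, in 2 overlapping pairs, and 71% G and C. Enpp1 had 1 match to the GC box and 1 to the short cAMP response site, with 61.7% G and C. Dpp4 had 1 TATA box, no GC box and 45.3% G and C. Of the 32851 promoters in the RefSeq table, 35.7% held a GC box, 20.8% the short site, 1.79% the full element, 13.6% the TATA box, 8.30% the interferon-γ activated site and 7.81% the AP-1 site. A match is a description of the letters and not of binding.

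The other genes of purine metabolism were described beside the 10. Of 46 such genes, all were in the table and 39 passed the filter on low counts. None of the 39 passed the test between the groups (edgeR, smallest adjusted p = 0.145), and 8 had an unadjusted p under 0.05, 3 higher and 5 lower in the dual group, against 12.8% of all genes. Their median log2 fold change was 0.01, against 0.00 over all genes. DESeq2 called 0 of the 22 to which it gave an adjusted p. The smallest p was that of Nt5c, a cytosolic nucleotidase that removes phosphate from nucleoside monophosphates, with 38.8 to 41.2 CPM in the A2A antagonist libraries and 33.3 to 37.4 in the dual libraries, no overlap, and a log2 fold change of -0.16 (SE 0.05, adjusted p = 0.145). Its mitochondrial relative Nt5m had -0.16 (adjusted p = 0.265). Cd38, a surface enzyme that consumes NAD, had 0.14 (adjusted p = 0.298), and Lrrc8a, a subunit of the volume-regulated anion channel, -0.13 (adjusted p = 0.338). Ahcyl2, a protein related to the hydrolase of S-adenosylhomocysteine, had 0.08 (adjusted p = 0.361) without overlap between the groups. Entpd5, a nucleotidase of the endoplasmic reticulum, had 0.10 (adjusted p = 0.362), and Aprt, which salvages adenine, -0.11 (adjusted p = 0.389). Nt5c and Ahcyl2 were the only 2 of the 39 without overlap, against 7.42% of all genes tested, so nothing is concluded from it.

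**Figure D4:**
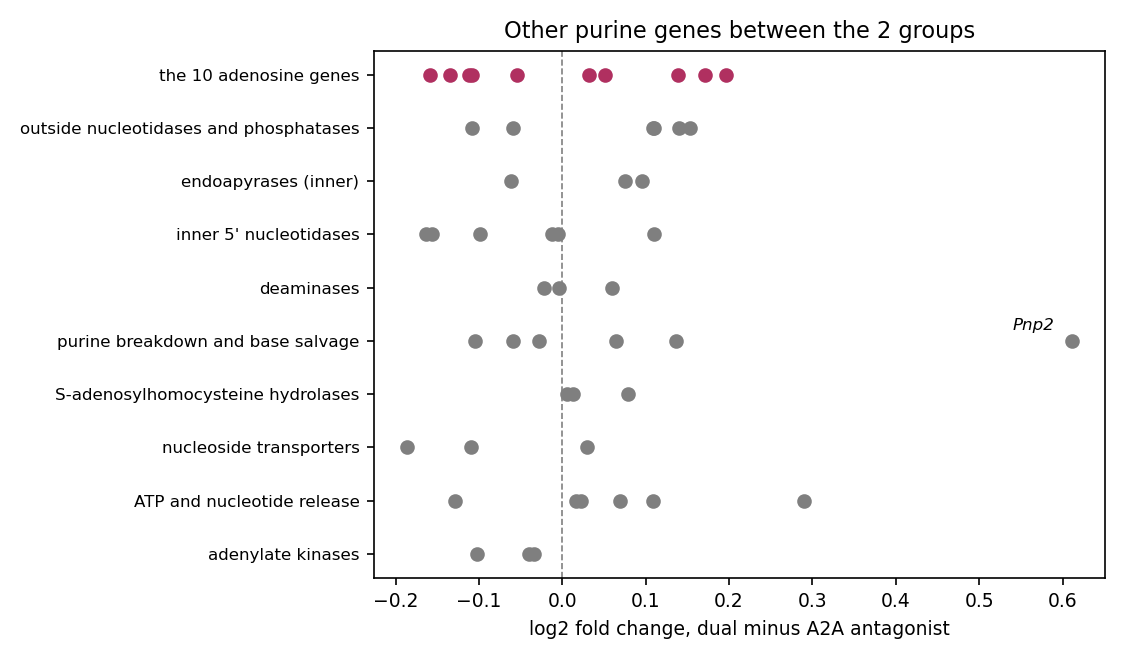
Log2 fold change, dual minus A2A antagonist, for the 10 adenosine genes (dark red) and 39 other purine genes by subgroup (grey), each point 1 gene. The 10 genes lie between -0.16 and 0.20, and Pnp2, at 0.0827 to 0.230 FPKM, has the highest point estimate of 0.61 without passing the test.

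The highest genes of the subgroups were Ak1, an adenylate kinase, at a mean of 49.9 FPKM, Ampd3, which deaminates AMP, at 42.3, Ahcyl1, a relative of the S-adenosylhomocysteine hydrolase, at 37.8, Aprt at 37.4, Nt5c at 32.7, Cd38 at 19.3, Entpd5 at 9.06, the nucleotide exporter Abcc4 at 6.22 and the nucleoside transporter Slc29a2 at 2.09. Ampd3 was thus above Ada (0.954) and Slc29a2 below Slc29a1 (4.28) on the FPKM scale. Against the control, 8 of the 38 purine genes that could be compared had an authors' mean more than 1.5-fold lower in the A2A antagonist group, a share of 21.1% beside 10.9% of all genes compared, and 1 had one more than 1.5-fold higher, where the share of all genes was 3.71%. The latter was Panx2, a pannexin, with a ratio of 1.81, and the lowest ratio was that of Entpd3, a surface relative of Entpd1, at 0.257, both named after their values were seen. Cd38 was among the 8, with authors' means of 3104 and 5167 (ratio 0.601).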

How the data were processed

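RNA from 8 cultures was sequenced, and per the labels the authors' reads were counted with featureCounts 1.5.0-p3 on mm10 (GRCm38). The methods of the study name Hisat2 as the aligner, and whether counting used strand is not given in the sources used here. The deposited values used were the raw counts of each gene (32630602 to 45878639 per library, which sets the counting error given), the FPKM computed by the authors, and the authors' mean normalized counts of the A2A antagonist and control groups, a size-factor scaled signal. The 9 columns of single control libraries belong to no sample of this series and were not used. The authors' own fold changes and p-values were not used.

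The raw counts entered edgeR 4.0.16 (R 4.3.3; filterByExpr minimum count 10, TMM factors, quasi-likelihood F test, two-sided, no covariates), with Benjamini-Hochberg adjustment over 18756 genes and calls at an adjusted p under 0.05. Alternatives were DESeq2 1.42.0, other scalings, no filter, a replicate block and leaving out each library. The authors' means were compared for genes with a mean of at least 10 over both groups, at the 1.5-fold criterion of the study. No member failed the filter, so the exact permutation test planned for such genes was not needed. Counts in the A2A antagonist libraries were identical in both tables (30302 genes, 0 differing values), and no pair of libraries of the same group agreed within sampling noise (chi-square per degree of freedom 3.58 to 8.65). Positions were compared with GENCODE mouse release M21, where all 10 genes had the same position. The members, lists and tests were chosen with earlier results of these data known. Purine genes named are the 8 with the smallest p, the highest in FPKM of each subgroup, and Pnp2, and 1 gene of these is not reported here.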

Additional observations from a re-analysis of the deposited data

How the results depend on the processing

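The count of members called was 0 under 12 of the 13 alternatives and 1 (Pnp) with the DESeq2 Wald test. Of the 130 recomputed log2 fold changes of members, 127 kept direction and were not called. DESeq2 gave an adjusted p to only 3 members, so the other members could not be called there. Dpp4 reversed to 0.19 without A2A antagonist library 2 and to 0.04 without dual library 2, over a range of -0.20 to 0.19 with 1 library left out. The adjusted p of Pnp ranged from 0.0466 to 0.394. No purine gene was called under any of the 13. Over all genes, the 39 calls became 366 with no low-count filter and 417 with DESeq2, and the cause was not tested. Leaving out 1 library gave 0 to 172 calls: 172, 5, 6 and 0 without A2A antagonist library 1, 2, 3 and 4, and 0 without dual library 3. With the replicate number as a block 17 genes and 0 members were called. Same-numbered libraries did not deviate together (correlations -0.05 to 0.04 over 4 pairs). These correlations gave no sign that the numbers pair the samples, but 4 pairs cannot exclude it. At a 2-fold threshold, chosen after seeing the data, 3 members stayed below the control mean and 0 above. Centring the authors' means on their median left both counts at 3 and 1. All 20 mean FPKM values recomputed from counts lay within 1 SD of the deposited ones. The recomputed CPM for members that fail the filter was not run, since no member failed it. Depth limits Ada, at 60 to 100 reads per library, more than the other members. The spread of Dpp4 was above counting error in both groups, and so was that of Entpd2, Nt5e, Slc29a1, Pnp and Adk.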
